A study of Mus musculus with 8 samples.

Results

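The metallothionein genes Mt1 and Mt2, the zinc-sensing transcription factor gene Mtf1, the zinc exporter genes Slc30a1 and Slc30a10 and the zinc importer genes Slc39a4 and Slc39a14 were followed in RNA-seq of MC38 tumor stroma. They were selected by gene symbol, and 7 of 7 were present among the 55487 rows of the count table and among the 14353 genes that passed the expression filter. GFP-labelled MC38 mouse colorectal cancer cells, in which Bmal1 was not deleted, were grown subcutaneously in Bmal1+/+ or Bmal1-/- hosts bred from Bmal1+/- founders. Bmal1 encodes the clock transcription factor that pairs with CLOCK, and its deletion was conventional, present from conception in every host tissue and not limited to stroma. When the tumors were dissociated, GFP+ tumor cells were removed by cell sorting, and RNA of the remaining GFP- stromal vascular fraction was sequenced from 4 mice of each genotype. The labels name no treatment, and the age, sex and hour of collection of the mice are not given in the sources used here.

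Library totals lay between 14054825 and 18449143 counts. Counts over the whole of Bmal1 (Arntl in the annotation) were lower in Bmal1+/+ than in the other group. They stood at 1.55 ± 0.814 CPM, the count scaled to library size (SD, n = 4), in Bmal1+/+ and at 32.6 ± 2.00 CPM (SD, n = 4) in the other. Such counts do not show which exons were read, so they do not test the genotype label. The other group is therefore called the libraries labelled Bmal1-/-. Xist, the transcript of the inactive X chromosome, was at 844 CPM or more in every Bmal1+/+ library and at 0.749 CPM or less in every library labelled Bmal1-/-. Counts of 4 Y-linked genes separated the libraries in the opposite way, so genotype label and sex cannot be told apart here. Cell type markers went against the tissue label. The summed level of 10 hepatocyte markers was 100862.3 to 110893.5 CPM in Bmal1+/+ and 59075.9 to 71415.2 CPM in the libraries labelled Bmal1-/-. In contrast, 10 fibroblast markers, of which 9 passed the expression filter, summed to 145 to 229 CPM and 105 to 111 CPM. The lower hepatocyte sum was that of albumin (Alb), with 64317.6 to 71872.0 CPM in Bmal1+/+ and 12744.3 to 18829.8 CPM in the libraries labelled Bmal1-/-. The other 9 markers were higher in sum, at 36544.7 to 39021.5 CPM in Bmal1+/+, 42640.5 to 43363.8 CPM in replicates 1 to 3 labelled Bmal1-/- and 58670.9 CPM in replicate 4. Of the 10, 2 rose and 1 fell, where 14.9% of all tested genes were called higher and 16.2% lower. Their median log2 fold change was 0.14. Sums of 10 macrophage and immune markers were 559 to 670 CPM in Bmal1+/+, 255 to 324 CPM in replicates 1 to 3 labelled Bmal1-/- and 488 CPM in replicate 4, and those of 10 endothelial markers were 324 to 372 CPM in Bmal1+/+ and 217 to 297 CPM in the other group. Of 10 epithelial and tumor markers 5 were tested, with sums of 193 to 242 CPM and 236 to 375 CPM and with the intestinal factor Cdx2 at 0 in every library. Fewer cells of a type and less RNA per cell cannot be told apart in such bulk RNA, and the part of these markers in the results was not tested. Replicate 4 labelled Bmal1-/- stood apart from the other 7 libraries in liver acute-phase transcripts, so results that rest on it are given with and without it. Its title is KO6, out of sequence with KO1, KO2 and KO3, and its description calls it replicate 4.

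Metallothioneins are small cysteine-rich proteins that bind zinc, copper and cadmium and buffer free zinc in the cell. When zinc rises, MTF1 binds metal response elements in the promoters of metallothionein genes and of Slc30a1 and activates them, and in liver glucocorticoids and acute-phase cytokines induce metallothioneins as well. SLC30 proteins carry zinc out of the cytosol and SLC39 proteins carry it in. SLC30A10 is known mainly as a manganese exporter of liver and intestine, and SLC39A14 takes up zinc, manganese and iron and is induced in hepatocytes during inflammation.

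Mt1 and Mt2 lie side by side on chromosome 8 of GRCm38, with Mt2 at chr8:94172664-94173568 and Mt1 at chr8:94179082-94180327, both on the plus strand and 5513 bases apart. Mt3 and Mt4, the other genes of the cluster, had 0 counts in every library, where the floor of 3 counts stood at 0.163 to 0.213 CPM. Slc30a10 lies at chr1:185454848-185468762 on the plus strand. Promoter windows of the 250 bases before the start were taken from RefSeq (GRCm38.p6), which held 5 of the 7 genes, namely Mt1, Mt2, Mtf1, Slc30a1 and Slc30a10. The windows of the metallothionein pair and of Slc30a10 are shown because these genes had the widest differences between libraries of the 7. The lines are written 5′ to 3′ on the plus strand, capitals mark the core of the metal response element, TGCACNC or TGCGCNC on either strand, and the Mt1 line ends just before the annotated gene. They span chr8:94178839-94179081 for Mt1, chr8:94172368-94172617 for Mt2 and chr1:185454598-185454847 for Slc30a10.
Mt1: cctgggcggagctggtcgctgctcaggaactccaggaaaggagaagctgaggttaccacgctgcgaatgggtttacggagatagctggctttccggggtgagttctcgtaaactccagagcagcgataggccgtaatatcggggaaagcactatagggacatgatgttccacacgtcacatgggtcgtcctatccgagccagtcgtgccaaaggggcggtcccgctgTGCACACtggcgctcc
Mt2: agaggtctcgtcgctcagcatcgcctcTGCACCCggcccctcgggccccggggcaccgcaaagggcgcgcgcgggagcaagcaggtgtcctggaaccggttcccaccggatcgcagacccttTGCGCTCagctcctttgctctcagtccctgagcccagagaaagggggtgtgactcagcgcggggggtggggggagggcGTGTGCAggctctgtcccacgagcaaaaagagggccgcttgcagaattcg
Slc30a10: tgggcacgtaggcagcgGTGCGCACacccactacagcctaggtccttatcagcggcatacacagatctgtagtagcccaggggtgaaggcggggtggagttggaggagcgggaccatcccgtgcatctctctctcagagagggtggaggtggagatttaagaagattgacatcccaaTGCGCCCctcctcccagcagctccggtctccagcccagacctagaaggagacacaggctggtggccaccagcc
The windows held 1 core in Mt1, 3 in Mt2, 3 in Slc30a10, 1 in Slc30a1 and 0 in Mtf1. The Mtf1 window, chr4:124802299-124802548, lies inside the annotated gene, which starts at chr4:124802104, so its 0 does not cover the bases before that gene. The RefSeq start of Mt2, chr8:94172618, lies before the annotated one. When the windows were extended to 300 bases, past the RefSeq start, the counts were 3 in Mt1, 4 in Mt2, 2 in Slc30a1, 3 in Slc30a10 and 0 in Mtf1, and 25.7% of all such windows held at least 1 core, 7.11% at least 2 and 1.97% at least 3. In Mt1 the added cores lie 2 and 20 bases past the RefSeq start. The Mt1 counts for 250 bases therefore describe that window only, and which start was used in these libraries was not tested. In Slc30a10, 2 of the 3 matches overlap on opposite strands. Of 32851 RefSeq windows of 250 bases, 21.4% held at least 1 core, 5.17% held at least 2 and 1.26% held at least 3. The E-box CACGTG, the element bound by CLOCK and BMAL1, was found in 0 of the 5 windows of 250 bases and in 6.02% of all such windows. These matches are letters in a window and not measured binding sites.

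Mt1 and Mt2 were lower in 3 of the 4 libraries labelled Bmal1-/- and far higher in the fourth. Mt1 (ENSMUSG00000031765) stood at 246, 477, 356 and 593 CPM in Bmal1+/+ replicates 1 to 4 and at 128, 72.0, 166 and 962 CPM in replicates 1 to 4 labelled Bmal1-/-. Replicates 1 to 3 of the latter lay below every Bmal1+/+ library and replicate 4 lay above every one, so that the groups overlapped. The group means were 418 ± 150 CPM and 332 ± 422 CPM (SD, n = 4 each), a log2 fold change of -0.33 (SE 0.71, adjusted p = 0.75, edgeR's quasi-likelihood test). Without replicate 4 labelled Bmal1-/- the log2 fold change was -1.78 (SE 0.35, adjusted p = 0.0047), 3.42-fold lower than in Bmal1+/+.

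Mt2 (ENSMUSG00000031762) followed the same pattern over a wider range. It stood at 119, 240, 143 and 347 CPM in Bmal1+/+ and at 35.9, 13.9, 59.6 and 1375.4 CPM in the libraries labelled Bmal1-/-. Again replicates 1 to 3 labelled Bmal1-/- were below all Bmal1+/+ libraries, and replicate 4 was above all of them. The group means were 212 ± 104 CPM and 371 ± 670 CPM (SD, n = 4 each), and the log2 fold change was 0.81 (SE 1.18, adjusted p = 0.64). Without replicate 4 it was -2.54 (SE 0.52, adjusted p = 0.0059), 5.81-fold lower, so 1 library set both the direction and the size. Relative to the mean of replicates 1 to 3 labelled Bmal1-/-, replicate 4 held 37.7-fold more Mt2 and 7.89-fold more Mt1.

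**Figure D1:**
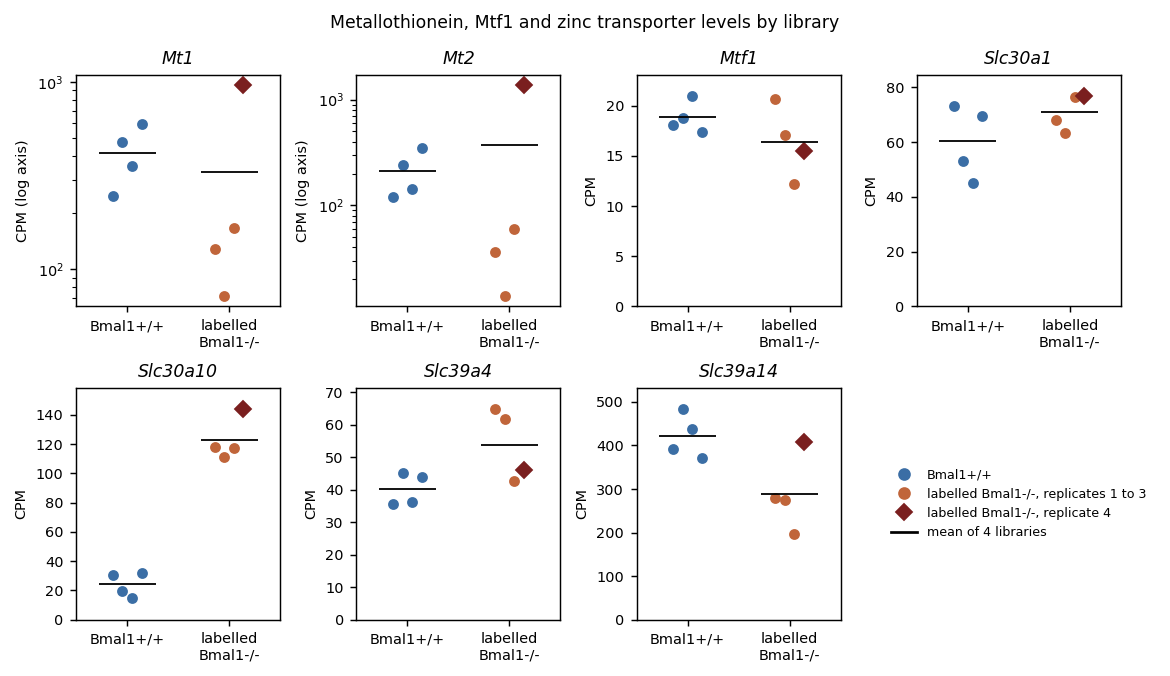
Normalised CPM of the 7 genes by library, with 1 point per library, Bmal1+/+ and the libraries labelled Bmal1-/- side by side, a bar at each group mean, and a log axis for the metallothioneins. Slc30a10 has no overlap between the groups, while for Mt1 and Mt2 replicate 4 labelled Bmal1-/- lies above all other libraries and the other 3 lie below the Bmal1+/+ range.

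Replicate 4 labelled Bmal1-/- was also the highest of the 8 libraries in 20 of 20 acute-phase genes, the liver transcripts induced by IL-6 and IL-1. Their summed level was 16435.1 to 20846.8 CPM in Bmal1+/+, 22922.5 to 26638.3 CPM in replicates 1 to 3 labelled Bmal1-/- and 109429.6 CPM in replicate 4. Saa2, which encodes a serum amyloid A protein, was picked with Lcn2 and Hp after the values were seen. It stood at 9.41 to 24.3 CPM in Bmal1+/+, 2.70 to 4.50 CPM in replicates 1 to 3 labelled Bmal1-/- and 7317.5 CPM in replicate 4. In the same order, Lcn2, which encodes an iron-scavenging lipocalin, stood at 20.9 to 34.1, 2.56 to 9.55 and 1072.7 CPM. Hp, which encodes haptoglobin, stood at 1108.3 to 2182.8, 1848.7 to 3884.2 and 15580.3 CPM. Neutrophil markers were the highest in replicate 4 labelled Bmal1-/- as well, in 10 of 10 genes, of which only 3 passed the expression filter. Their summed level there was 52.8 CPM against 2.92 to 3.93 CPM in replicates 1 to 3 and 7.64 to 10.8 CPM in Bmal1+/+. S100a8 and S100a9, at 15.2 CPM each, made up the largest part of the 52.8 CPM, while Ly6g had 3 counts in that library. Macrophage and immune markers were the highest of the group in that library in 9 of 10 genes, and the highest of all 8 libraries in 2. Hepatocyte markers moved in both directions there. The library was the highest of its group in 3 of 10 and the lowest in 6, and its sum of 71415.2 CPM against 59075.9 to 61991.6 CPM in replicates 1 to 3 came with Trf, the transferrin gene, at 20284.2 CPM against 5345.6 to 6390.4, and with Fgb, which is also on the acute-phase list. How often this library was the highest over all tested genes was not counted, so these counts stand without a background share. The part of these transcripts in the metallothionein levels was not tested.

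Of the 20 acute-phase genes, 7 rose and 0 fell, with a median log2 fold change of 1.21, and without replicate 4 the counts were 7 and 6 with a median of -0.16. Of all tested genes, 14.9% were called higher and 16.2% lower, and without replicate 4 these shares were 15.0% and 16.9%. Fibrinogen chain genes Fgg (1.12, adjusted p = 0.036) and Fgb (1.14, adjusted p = 0.027) were among those higher on the log2 scale by edgeR's quasi-likelihood test. Their values were 0.59 (adjusted p = 0.012) and 0.65 (adjusted p = 0.0057) without replicate 4 labelled Bmal1-/-. The inter-alpha-trypsin inhibitor gene Itih3 was higher by 1.96 (adjusted p = 0.0098) and Lrg1, which encodes a secreted glycoprotein of the acute phase, by 2.47 (adjusted p = 0.02). Both stood at 1.18 without replicate 4 labelled Bmal1-/-, with adjusted p = 2.7e-04 for Itih3 and 0.0068 for Lrg1. Without Bmal1+/+ replicate 1, 2 or 4, Fgg, Fgb and Lrg1 each missed the threshold, with adjusted p-values of 0.056 to 0.089, and Fgg also did so without Bmal1+/+ replicate 3 (adjusted p = 0.058).

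**Figure D2:**
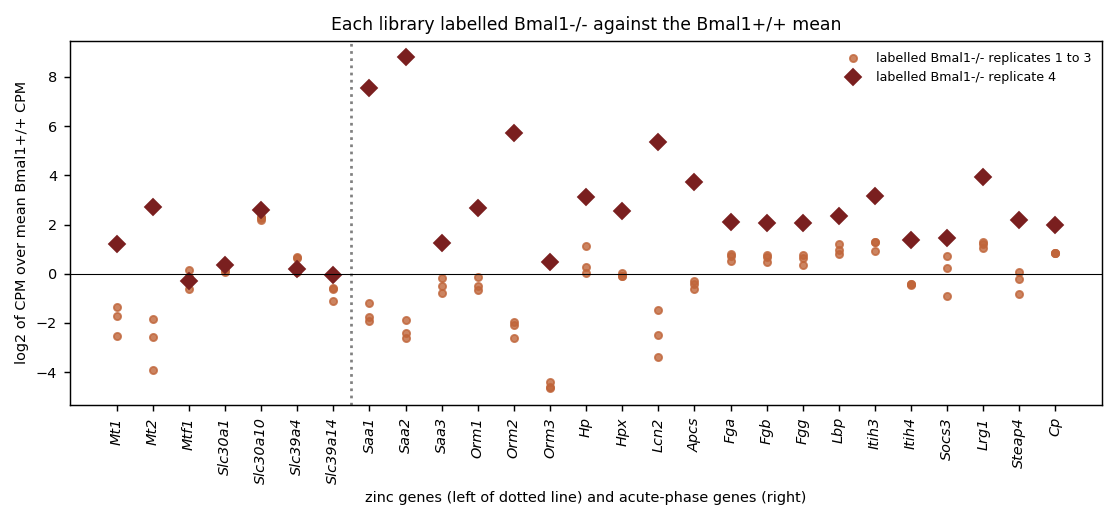
The log2 ratio of each library labelled Bmal1-/- to the mean Bmal1+/+ CPM, for the 7 zinc genes left of the dotted line and 20 acute-phase genes right of it. The dark diamonds of replicate 4 lie above the points of replicates 1 to 3 for all 20 acute-phase genes, and for Mt1 and Mt2 they lie above 0 while those of replicates 1 to 3 lie below it.

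The balance of the metallothionein pair spread more widely among the libraries labelled Bmal1-/-. The ratio of Mt2 to Mt1 counts was 0.485, 0.503, 0.401 and 0.585 in Bmal1+/+ and 0.280, 0.193, 0.360 and 1.43 in the libraries labelled Bmal1-/-. Replicates 1 to 3 of the latter were below all Bmal1+/+ ratios and replicate 4 was above them. The mean log2 ratios of -1.03 and -1.29 did not differ beyond this spread (two-sided exact permutation test, p = 0.74, n = 4 each, smallest possible p 0.0286).

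Mtf1 (ENSMUSG00000028890, chr4:124802104-124849800, plus strand) showed no difference past the threshold. Its levels were 18.1, 18.8, 21.0 and 17.4 CPM in Bmal1+/+ and 20.7, 17.1, 12.2 and 15.5 CPM in the libraries labelled Bmal1-/-. The groups overlapped, with replicate 1 labelled Bmal1-/- near the top of the Bmal1+/+ range and replicates 2 to 4 below all Bmal1+/+ libraries. Means were 18.8 ± 1.58 and 16.4 ± 3.53 CPM (SD, n = 4 each), with a log2 fold change of -0.20 (SE 0.16, adjusted p = 0.37). The gene overlaps 1110065P20Rik, with which reads could be shared.

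Slc30a10 (ENSMUSG00000026614) was the sole gene of the 7 to pass the test with all 8 libraries, and it rose. It stood at 30.3, 19.4, 14.8 and 32.2 CPM in Bmal1+/+ and at 118, 111, 117 and 144 CPM in the libraries labelled Bmal1-/-. Every library of the latter group was above every Bmal1+/+ library. Mean levels of 24.2 ± 8.41 and 123 ± 14.4 CPM (SD, n = 4 each) gave a log2 fold change of 2.34 (SE 0.24, adjusted p = 1.1e-04), a 5.06-fold difference. The value was 2.26 (adjusted p = 2.0e-04) without replicate 4 labelled Bmal1-/-. The gene overlaps the lincRNA gene Gm2061 on the opposite strand, and strand use in the counting is not given in the sources used here, so their reads cannot be told apart.

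Slc30a1 (ENSMUSG00000037434, chr1:191906767-191913247, plus strand) encodes the plasma membrane zinc exporter. Its levels were 73.3, 53.2, 45.1 and 69.4 CPM in Bmal1+/+ and 68.0, 63.2, 76.5 and 77.0 CPM in the libraries labelled Bmal1-/-. The groups overlapped, and the highest levels were in replicates 3 and 4 labelled Bmal1-/-. With means of 60.3 ± 13.4 and 71.2 ± 6.72 CPM (SD, n = 4 each), the log2 fold change of 0.24 (SE 0.16, adjusted p = 0.28) did not pass the threshold. An antisense gene, 1700034H15Rik, overlaps it.

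Slc39a14 (ENSMUSG00000022094, chr14:70303469-70351425, minus strand) stood at 393, 484, 437 and 372 CPM in Bmal1+/+ and at 279, 275, 197 and 407 CPM in the libraries labelled Bmal1-/-. Replicates 1 to 3 labelled Bmal1-/- were below every Bmal1+/+ library and replicate 4 lay within the Bmal1+/+ range. The means were 422 ± 49.7 and 289 ± 87.1 CPM (SD, n = 4 each), and the log2 fold change of -0.54 (SE 0.20, adjusted p = 0.07) missed the threshold. Without replicate 4 labelled Bmal1-/- it was -0.75 (SE 0.15, adjusted p = 0.0056), 1.68-fold lower.

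Slc39a4 (ENSMUSG00000063354, chr15:76612383-76617384, minus strand) encodes an importer best known for zinc uptake in the intestine. It stood at 35.6, 45.1, 36.1 and 44.0 CPM in Bmal1+/+ and at 64.9, 61.9, 42.6 and 46.0 CPM in the libraries labelled Bmal1-/-. Replicate 3 labelled Bmal1-/- overlapped the Bmal1+/+ range and the other 3 lay above it. With means of 40.2 ± 5.03 and 53.9 ± 11.2 CPM (SD, n = 4 each), the log2 fold change was 0.42 (SE 0.16, adjusted p = 0.07). It was 0.49 (adjusted p = 0.047) without replicate 4 and 0.50 (adjusted p = 0.038) without replicate 3 labelled Bmal1-/-.

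Of the 7 genes, 1 was higher and 0 were lower, where 31.1% of the 14353 tested genes were called in either direction. The groups did not overlap for 1 of the 7, against 33.4% of all tested genes. Without replicate 4 labelled Bmal1-/-, 2 were higher, Slc30a10 and Slc39a4, and 3 were lower, Mt1, Mt2 and Slc39a14. In that comparison 31.9% of 14775 genes were called, 15.0% higher and 16.9% lower, and the ranges did not overlap for 40.9%.

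Levels of different genes were compared as deposited FPKM, the count divided by library total and a fixed length per gene. For Mt1 that length is longer than the whole annotated gene of 1246 bases, which lowers its FPKM. The order of Mt1 and Mt2 in Bmal1+/+ is therefore not settled by FPKM, and in counts Mt1 was above Mt2 there. How the lengths were set is not given in the sources used here, so the orders below are of deposited FPKM only. In Bmal1+/+, Mt2 at 250 ± 119 FPKM and Mt1 at 181 ± 62.3 FPKM led the order, with overlapping ranges. Slc39a14 followed at 28.5 ± 3.23 FPKM, below both ranges. Slc30a1 at 10.1 ± 2.25 FPKM and Slc39a4 at 9.10 ± 0.949 FPKM overlapped each other. Slc30a10 was at 2.42 ± 0.839 FPKM and Mtf1 was last at 1.25 ± 0.121 FPKM (SD, n = 4 for each gene). In the libraries labelled Bmal1-/-, Slc30a10 at 12.5 ± 1.21 FPKM had moved to the level of Slc39a4 at 12.5 ± 2.83 FPKM and Slc30a1 at 12.1 ± 0.903 FPKM, and these ranges overlapped. Slc39a14 was at 19.9 ± 5.65 FPKM and overlapped Slc30a10. The remaining genes were Mt1 at 145 ± 181 FPKM, Mt2 at 437 ± 786 FPKM and Mtf1 at 1.11 ± 0.255 FPKM (SD, n = 4 for each gene). The higher mean of Mt2 rested on replicate 4, with 1620 FPKM against 415 for Mt1. In replicates 1 to 3 Mt2 was below Mt1, at 44.2, 17.2 and 71.6 FPKM against 57.9, 32.6 and 73.0. In replicate 2 Mt2 was also below Slc39a14, at 19.3 FPKM.

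**Figure D3:**
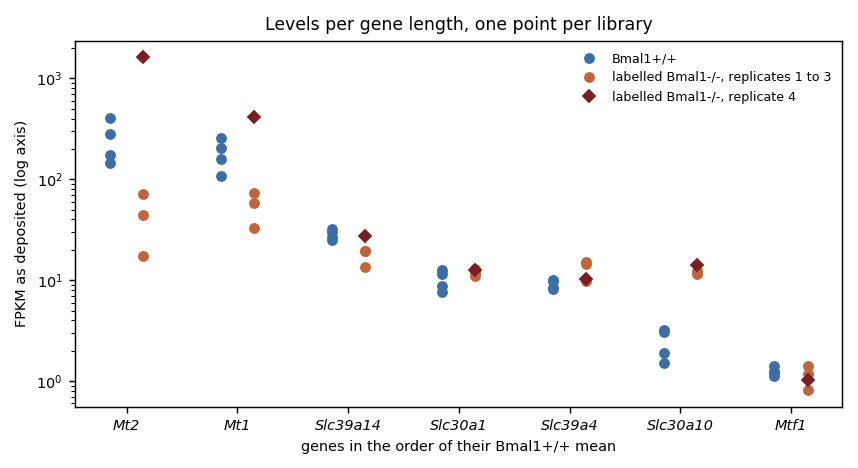
Deposited FPKM on a log axis for the 7 genes, with 1 point per library, ordered by the Bmal1+/+ mean. Slc30a10 moves from 2.42 ± 0.839 to 12.5 ± 1.21 FPKM (SD, n = 4 each), level with Slc30a1 and Slc39a4, while Mt1 and Mt2 spread most among the libraries labelled Bmal1-/-.

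Among the SLC30 and SLC39 families, 24 genes in all, 19 were tested, of which 3 rose and 2 fell, where 31.1% of all tested genes were called. Their median log2 fold change was 0.24, beside 0.02 over all tested genes, and the groups did not overlap for 6 of the 19, against 33.4% of all tested genes. Slc39a8, an importer of zinc and manganese, rose from 26.4 ± 2.07 to 33.4 ± 1.70 CPM (SD, n = 4 each), by 0.34 on the log2 scale (SE 0.10, adjusted p = 0.024). That call was lost without Bmal1+/+ replicate 2 or 3 or replicate 1 or 2 labelled Bmal1-/-, with adjusted p-values of 0.055 to 0.069. Slc39a11, a zinc importer, rose from 26.5 ± 1.03 to 43.5 ± 5.81 CPM (SD, n = 4 each), by 0.71 (SE 0.11, adjusted p = 0.0014), and its locus contains Cog1 and Sstr2. Slc39a10, an importer of the plasma membrane that MTF1 represses, fell from 6.18 ± 1.03 to 3.31 ± 0.90 CPM (SD, n = 4 each), a log2 fold change of -0.90 (SE 0.23, adjusted p = 0.015). The other gene that fell, Slc39a5, was under the minimum level set for named genes and was singled out after its values were seen. It had 46, 16, 18 and 41 counts in Bmal1+/+ and 4, 0, 0 and 0 counts in the libraries labelled Bmal1-/-, and 3 of the latter were under the floor of 3 counts. Without replicate 4 labelled Bmal1-/-, 4 genes of the families were higher and 3 lower, where 31.9% of all tested genes were called.

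**Figure D4:**
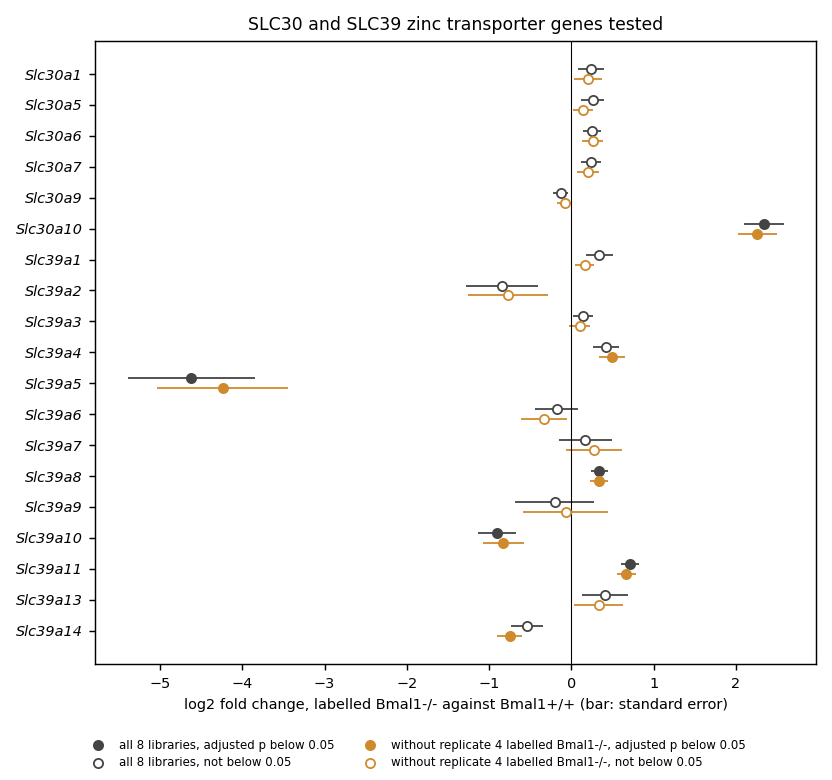
Log2 fold change of the 19 tested SLC30 and SLC39 genes, labelled Bmal1-/- against Bmal1+/+, with standard errors as bars, filled points for an adjusted p below 0.05, and a second colour for the fit without replicate 4 labelled Bmal1-/-. Slc39a14 is open at -0.54 with all libraries and filled at -0.75 without that replicate.

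Manganese transport genes, which include Slc30a10, Slc39a8 and Slc39a14, numbered 6, of which 3 rose and 0 fell, where 14.9% of all tested genes were called higher and 16.2% lower. The third was Slc11a2, which encodes the divalent metal transporter DMT1. It rose from 24.2 ± 2.89 to 53.7 ± 6.91 CPM (SD, n = 4 each), by 1.15 on the log2 scale (SE 0.13, adjusted p = 2.0e-04), with no overlap between groups, and it overlaps Gm5475. When replicate 4 labelled Bmal1-/- was left out, Slc39a14 was lower and the count of lower genes was 1. In that fit 16.9% of all tested genes were called lower.

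Copper handling genes, which cover uptake, export and delivery to cytochrome oxidase, numbered 15, and 4 rose and 4 fell, where 31.1% of all tested genes were called. Their median log2 fold change was 0.10, and the groups did not overlap for 10 of the 15, against 33.4% of all tested genes. Sco2, a chaperone that brings copper to cytochrome c oxidase, rose from 13.3 ± 2.44 to 51.8 ± 15.0 CPM (SD, n = 4 each), by 1.95 on the log2 scale (SE 0.22, adjusted p = 2.0e-04). The locus of Sco2 overlaps Tymp and Ncaph2. Cp, which encodes the plasma copper protein ceruloplasmin and is also an acute-phase gene, was at 631 to 831 CPM in Bmal1+/+, at 1308.3 to 1321.3 CPM in replicates 1 to 3 labelled Bmal1-/- and at 2882.5 CPM in replicate 4. Its log2 fold change was 1.22 (adjusted p = 0.0082), and 0.84 (adjusted p = 0.001) without that replicate. Steap2, a metalloreductase, was at 6.68 to 11.3 CPM in Bmal1+/+, at 2.13 to 2.19 CPM in replicates 1 to 3 labelled Bmal1-/- and at 6.44 CPM in replicate 4. It fell by 1.45 on the log2 scale (adjusted p = 0.017), and its log2 fold change was -2.02 (adjusted p = 3.8e-04) without replicate 4. Atp7a, which encodes the copper-exporting ATPase of most tissues outside liver, fell by 0.61 (adjusted p = 0.026). That call was lost without Bmal1+/+ replicate 1 or 3 or replicate 2 or 3 labelled Bmal1-/-, with adjusted p-values of 0.053 to 0.075. Without replicate 4 labelled Bmal1-/-, 6 copper genes were higher and 4 lower, where 31.9% of all tested genes were called.

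**Figure D5:**
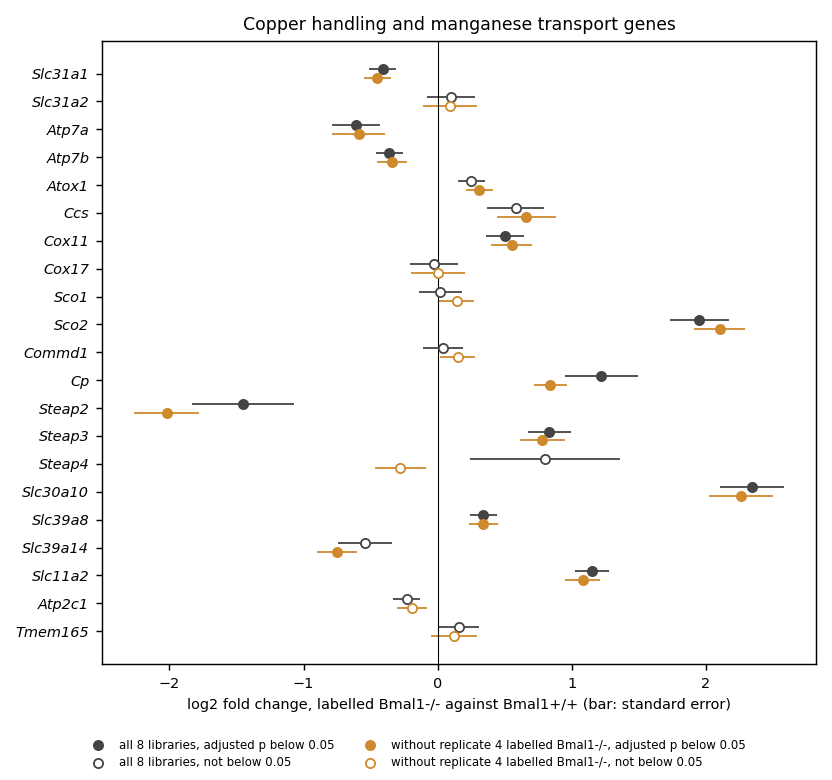
Log2 fold change of the copper handling and manganese transport genes, labelled Bmal1-/- against Bmal1+/+, with standard errors as bars, filled points for an adjusted p below 0.05, and a second colour for the fit without replicate 4 labelled Bmal1-/-. Sco2 at 1.95 and Slc11a2 at 1.15 are filled with all libraries, and Steap2 moves from -1.45 to -2.02 without that replicate.

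Genes linked to MTF1 numbered 7, of which 1 rose and 2 fell, where 31.1% of all tested genes were called. Their median log2 fold change was 0.24, and Mt1, Mt2, Slc30a1, Slc30a10 and Slc39a10 among them are described above. Slc40a1, the gene of the iron exporter ferroportin, fell from 168 ± 25.7 to 86.4 ± 12.6 CPM (SD, n = 4 each), by 0.96 on the log2 scale (SE 0.15, adjusted p = 0.0011). Without replicate 4 labelled Bmal1-/-, 1 of the 7 was higher, 4 were lower and the median was -0.83, where 31.9% of all tested genes were called.

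Patterns over the 8 libraries were compared by the root mean square difference of log2 CPM after each gene was centred on its own mean, over 13445 genes that averaged 1 CPM or more. The nearest gene to Mt2 was Gm45774, which overlaps it on the opposite strand, at 0.462, followed by Mt1 at 0.791, S100a9 at 0.856, S100a8 at 0.882 and Fgl1 at 0.933. The nearest to Mt1 was also Gm45774, at 0.413, followed by Tlr13 at 0.454, Tnfsfm13 at 0.464, Syne4 at 0.506 and Ly75 at 0.529, while Mt2 came 151st. Gm45774 stood at 44.0, 82.6, 45.5 and 99.4 CPM in Bmal1+/+ and at 12.7, 6.44, 18.1 and 199 CPM in the libraries labelled Bmal1-/-. Reads of Gm45774 and Mt2 cannot be told apart. Slc39a14 was nearest to Etv6 at 0.087, Slc7a7 at 0.117, Vsir at 0.121, Il6st at 0.122 and Erc1 at 0.135. These are descriptions of 8 libraries that share the same split by label and by replicate 4.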

How the data were processed

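RNA-seq libraries of the sorted stromal vascular fraction, 4 per genotype label, were compared. The authors deposited raw whole-number counts per gene. FPKM values were deposited as well, equal to the count over the library total and 1 fixed length per gene within 1% for 100% of 14353 genes. Read mapping to GRCm38 with HISAT2 and counting with StringTie are stated in the study's methods, whereas the submitters' processing notes name CASAVA 1.8 and TopHat2 2.0.6, and the series text speaks of a microarray. Symbols and coordinates came from GENCODE M21, which matched 99.4% of 55487 identifiers.

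Counts were tested by the quasi-likelihood method of edgeR 4.0.16 under R 4.3.3, after filterByExpr and TMM scaling, with a prior count of 0.125 and no replicate block, with Benjamini-Hochberg adjustment over 14353 genes and a threshold of 0.05. Standard errors were derived from each log2 fold change and its F statistic. CPM used TMM-scaled library sizes, and the script was tested on simulated data. Library totals were 14054825 to 18449143 counts, and intervals and floors of 3 counts cover counting error only. Alternatives used DESeq2 1.42.0, limma 3.58.1, other scaling, filters and prior counts, log2(FPKM + 0.1), a replicate block and each library left out in turn. The 7 genes were named in full, with SLC30 and SLC39 genes past the threshold at a mean of at least 1 CPM and, from the copper, manganese, MTF1-linked, glucocorticoid and acute-phase lists, the 2 highest and 2 lowest such genes. Members and lists were chosen with earlier results of these data known. Promoter sequences came from RefSeq. Figures were drawn with matplotlib 3.10.9.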

Additional observations from a re-analysis of the deposited data

Results flagged for a closer look

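Replicate 4 labelled Bmal1-/- lay far from the other 3 libraries of its group in 8 of 23 genes tested by Dixon's criterion. The criterion flags about 1 in 20 by chance, but the genes came from lists chosen with earlier results of these data known. The count is therefore a description and no test against that rate. The 4 Bmal1+/+ libraries were tested for the same genes, 46 sets in all, with 0 such libraries. The genes were Mt1 at 962 CPM against 72.0 to 166 in the other 3, Mt2 at 1375.4 against 13.9 to 59.6, and Steap2 at 6.44 against 2.13 to 2.19. They were also Cp at 2882.5 CPM against 1308.3 to 1321.3, Fgg at 11656.5 against 3561.4 to 4651.4, Fgb at 12463.4 against 4178.5 to 5124.4, Itih3 at 4131.4 against 896 to 1150.1 and Lrg1 at 3386.8 against 453 to 540. In each of the 8 the library was the highest of its group. For Steap2 it was the sole library labelled Bmal1-/- near the Bmal1+/+ levels. Cp, Fgg, Fgb, Itih3 and Lrg1 are on the acute-phase list, where this library was the highest in 20 of 20 genes. Genes of 1 library are not independent of each other.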

How the results depend on the processing

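The call and direction of Slc30a10 held in every alternative run, with log2 fold changes of 2.17 to 2.50 when each library was left out in turn. Leaving out 1 library at a time moved Mt1 from -1.78 to 0.01, Mt2 from -2.54 to 1.21, Slc39a4 from 0.32 to 0.50 and Slc39a14 from -0.75 to -0.41. The 0.01 of Mt1 came without replicate 2 labelled Bmal1-/-, and the -1.78 and -2.54 without replicate 4. Mt2 also turned to -1.27 with limma-voom (adjusted p = 0.45), to -1.25 with limma on log2(FPKM + 0.1) (adjusted p = 0.45) and to -1.35 with the replicate block (adjusted p = 0.33), and Mt1, at -0.33 with all libraries, moved under the same alternatives to -1.02, -0.99 and -1.02. The cause was not tested. DESeq2 returned no adjusted p-value for Mt2, nor for Lrg1 among the other named genes, so it is no check on them. Slc39a14 passed the threshold at -0.56 with DESeq2 (adjusted p = 0.031). With limma-voom it passed only narrowly, at -0.59 (adjusted p = 0.05 after rounding). edgeR did not call it with all 8 libraries (adjusted p = 0.07). Left-out libraries gave 4 to 7 called zinc transporter genes and 6 to 10 called copper genes. The 7 and the 10 came without replicate 4 labelled Bmal1-/-, where 31.9% of all tested genes were called, against 31.1% with all libraries.

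Replicate numbers did not pair the libraries. Deviations from the group means of same-numbered libraries correlated at -0.064, 0.063, 0.043 and 0.036, and 1 of 4 correlated best with its own number. With the replicate block, 1809 genes were called higher and 2064 lower, against 2135 and 2322 without it, and apart from the sign of Mt2 it changed the call of none of the 7 genes. Among the other named genes, Fgg (adjusted p = 0.069), Fgb (0.059) and Lrg1 (0.053) lost their calls under the block, and Fgg also did so with no filter on low counts (0.053) and with limma on log2(FPKM + 0.1) (0.051). Depth limits Slc39a5, Mt3 and Mt4, which lay near or under the floor of 3 counts in the libraries labelled Bmal1-/-. With 4 libraries per group, and label and sex not separable, the values describe these 8 libraries.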

Other observations

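Glucocorticoids induce metallothionein genes, and 12 genes of the glucocorticoid response were measured. Of these, 2 rose and 1 fell, also without replicate 4 labelled Bmal1-/-, and that replicate was the highest of its group in 1 of 12. Cdkn1a, which encodes the cell cycle inhibitor p21 and is also a p53 target, rose from 12.1 ± 6.82 to 198 ± 78.4 CPM (SD, n = 4 each), by 4.04 on the log2 scale (SE 0.42, adjusted p = 1.2e-04). Klf9, a transcription factor gene, rose from 154 ± 21.5 to 219 ± 15.0 CPM, by 0.51 (adjusted p = 0.011). Fkbp5, which encodes a chaperone of the glucocorticoid receptor, fell from 176 ± 55.2 to 96.2 ± 17.6 CPM (SD, n = 4 each), a log2 fold change of -0.87 (SE 0.21, adjusted p = 0.013). Of all 14353 genes, 31.1% were called in either direction, and 31.9% of 14775 without replicate 4 labelled Bmal1-/-.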
